A study of Mus musculus with 15 samples.

Results

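Regulatory T (Treg) cells are T cells that carry the transcription factor FOXP3 and restrain other immune cells. The transcriptional response of WT Treg cells to beads coated with antibodies against CD3 and CD28 was examined by comparing 3 WT libraries made after culture with beads with 4 WT libraries made after culture without them. These are 7 of the 15 libraries of the series, and they were chosen by the genotype and treatment in their labels alone. All cells came from C57BL/6 female mice of genotype Foxp3YFP-Cre/+ Dock8flox/flox and were sorted as CD25+CD39+ from spleen and lymph nodes; the gate also names CD3 in the growth protocol and CD4 in the design text. In such mice Cre and YFP are expressed from the Foxp3 locus of a single X chromosome, and each female cell silences 1 X chromosome. The WT cells are the YFP- Treg cells, which express no Cre; they carry floxed Dock8 alleles and shared their hosts with YFP+ DOCK8-deficient Treg cells. The DOCK8-deficient (KO) cells of the series, 6 libraries without and 2 with beads, serve below as a comparison for the WT response. Their libraries also entered the model fit, so they share in the spread behind the SE and p-value of each WT difference. Culture lasted 16 h, in medium alone or with 1 bead per cell, and RNA was made into Smart-Seq2 libraries, a method that amplifies full-length cDNA from small amounts of RNA. The labels call the samples of a group independent without naming the animals, so p-values speak only of the spread among these libraries. WT libraries are called by the number in their title, 1 to 3 in each group; the fourth unstimulated library has no number and is called unnumbered.

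The beads engage the T cell receptor complex through CD3 and the costimulatory receptor CD28. Together these receptors activate calcium and NFAT, the kinases that feed AP-1, NF-kB, and the PI3K and mTOR route that drives growth, and T cells respond by inducing MYC, entering the cell cycle and shutting down genes of the resting state. Treg cells make little IL-2 of their own and depend on the IL-2 made by other T cells, which they sense through the IL-2 receptor chains CD25 (Il2ra), CD122 (Il2rb) and the common gamma chain, with STAT5 as the main transducer.

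Expression was given as TPM, a level scaled to transcript length and library total that keeps no read depth, so the depth is unknown and no interval from counts can be given. Differences are on the log2(TPM + 1) scale, beads minus unstimulated, which understates the change of low genes, and are given with their SE from a limma fit over all 29989 genes tested; a call is an adjusted p below 0.05. With beads 1378 genes were called higher, 4.6% of those tested, and 1988 were called lower, 6.63%, together 11.2%. Without the adjustment, 7842 genes had a p under 0.05. Of the 5937 genes whose mean reached 20 TPM in any of the 4 groups, 1220 (20.5%) were called higher and 894 (15.1%) lower, together 35.6%. The median log2 difference was -0.44 over all genes tested and 0.19 over those 5937 genes. The 1378 higher calls had a median difference of 1.96, and 660 of them were at least 2; the 1988 lower calls had a median of -1.55, and 334 were at or below -2. Higher calls were also the more abundant ones, with a median level of 76.8 TPM in their higher group against 15.7 TPM for lower calls. The groups did not overlap for 29.5% of all genes tested and 55.7% of the abundant ones.

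The balance between higher and lower calls depended on how libraries were put on a common scale. Higher calls made up 40.9% of calls on the deposited TPM, and 44.5% after scaling each library to 803 abundant genes, with 1418 higher (4.73% of those tested) and 1768 lower (5.9%). They made up 80.5% (2543 higher, 617 lower) under median-ratio scaling over genes above 0 in every library, which raised the median difference of all genes by 0.29. Quantile normalization, which raised it by 0.38, gave 57.3% (1201 higher, 896 lower), and rescaling without repeat-derived predicted genes, which shifted it by -0.20, gave 24.3% (1075 higher, 3350 lower). Those 12 predicted genes, Gm10800 and others that share short sequences, held 27.3% ± 8.98 (SD, n = 4) of the TPM of unstimulated and 10.8% ± 3.20 (SD, n = 3) of the TPM of bead libraries (exact two-sided permutation test, p = 0.0571). Unstimulated libraries also listed more genes at 1 TPM or above, 21780 ± 1344 (SD, n = 4) against 17310 ± 508 (SD, n = 3), and the exact permutation test gave 0.0286, the lowest p that 4 libraries against 3 allow. Genes that T cells do not use, such as odorant receptors and keratin-associated proteins, averaged 1.56 ± 0.489 TPM (SD, n = 4) without and 0.646 ± 0.057 TPM (SD, n = 3) with beads (exact permutation p = 0.0571). These levels are over the 1110 such genes listed in both sets of tables. Of the 1081 of them that were tested none was called higher and 11 (1.02%) were called lower, and the median difference of those tested was -0.39. Unstimulated library 3 stood apart in the share of such genes above 0, with 41.2% against 63.5% to 70.3% in the other 3 unstimulated libraries. Its mean level of 1.32 TPM lay within the 0.9955 to 2.065 TPM of those 3. The share above 0 averaged 59.7% without and 59.4% with beads. The part of these library differences in the lower calls was not tested. Bulk RNA cannot tell fewer cells of a type from less RNA per cell.

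**Figure D1:**
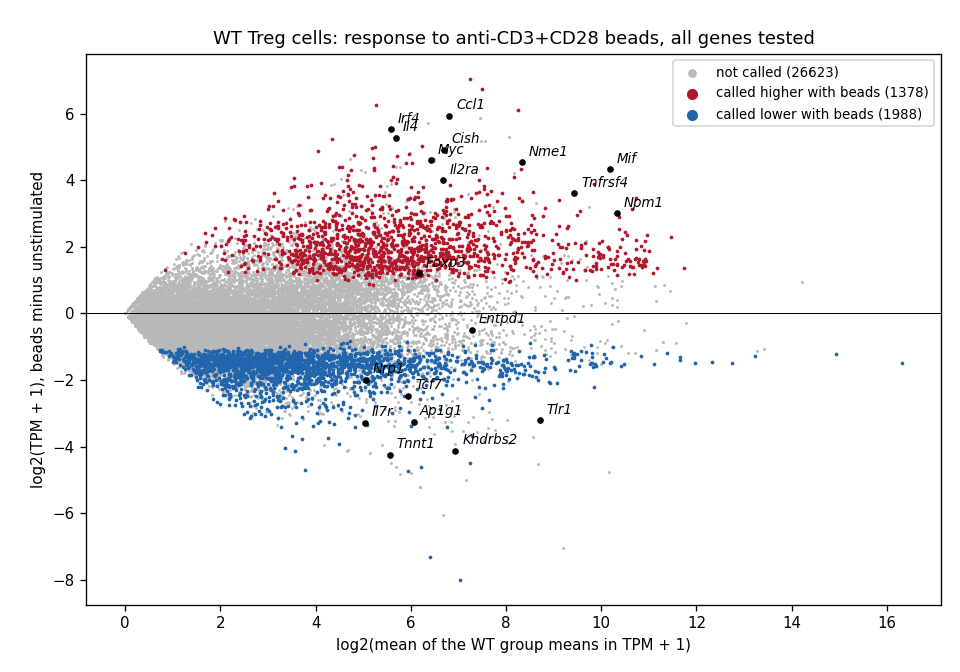
Each point is 1 of the 29989 genes tested; the x axis is log2(mean of the WT group means in TPM + 1) and the y axis the difference in log2(TPM + 1), beads minus unstimulated, with 1378 genes called higher in red, 1988 called lower in blue, the genes not called in grey and genes named in the text in black. Red points reach far into the abundant genes, while most blue points lie at low levels.

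**Figure D2:**
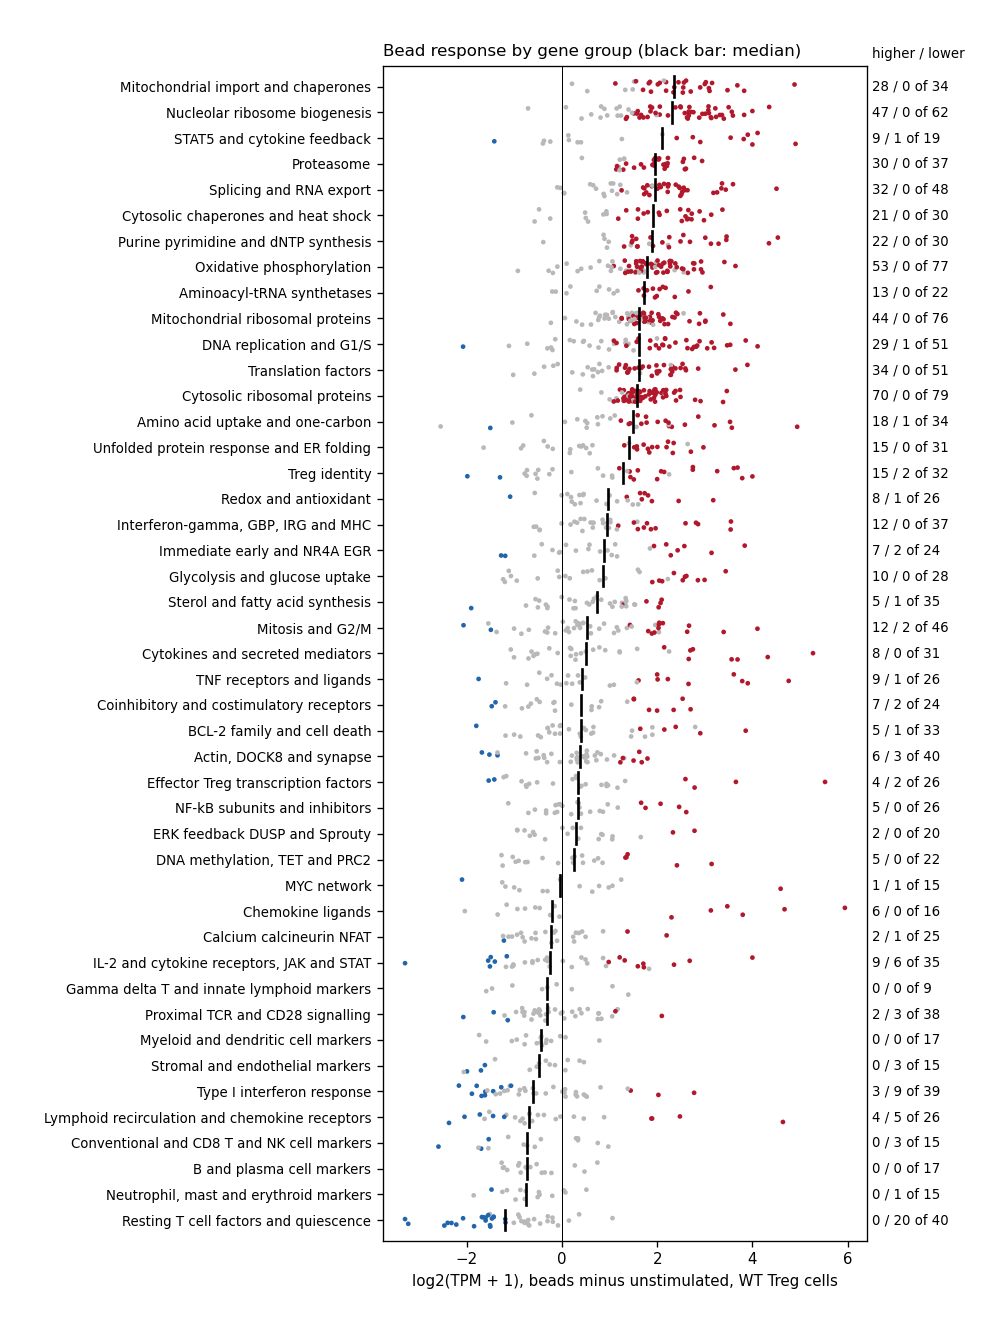
Each point is 1 tested gene of a group written for this description, placed by its difference in log2(TPM + 1), beads minus unstimulated, with called genes in red or blue, other genes in grey and the group's median as a black bar; the counts at the right are genes called higher and lower of those tested. Medians run from 2.35 for mitochondrial import and chaperones to -1.19 for resting T cell factors. Medians of the MYC network, chemokine ligands, calcium and NFAT, and cytokine receptors with JAK and STAT change sign under at least 1 other scaling. So do those of proximal T cell receptor signalling, DNA methylation and gamma delta T markers. Beside the group counts, 4.6% of all genes tested were called higher and 6.63% lower, and 20.5% and 15.1% of abundant genes.

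Several genes that mark Treg cells rose. Of the 32 genes of the Treg identity group 15 were called higher and 2 lower, with a median difference of 1.29. Foxp3, which specifies the lineage, read 41.1, 29.3 and 51.6 TPM in unstimulated libraries 1 to 3 and 50.7 TPM in the unnumbered library, and 102, 106 and 88.6 TPM in bead libraries 1 to 3. All 3 bead libraries were above all 4 unstimulated ones, a difference of 1.20 ± 0.37 with an adjusted p of 0.0479, which went to between 0.0541 and 0.144 when any 1 of the 7 libraries was left out. Ctla4, the coinhibitory receptor that Treg cells use to strip CD80 and CD86 from antigen-presenting cells, went from 54.5, 52.4, 62.9 and 95.9 TPM to 165, 194 and 198 TPM (1.51 ± 0.33, adjusted p = 0.00842). Without bead library 2 the higher calls of the group numbered 8.

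Il2ra and Il2rb, which encode IL-2 receptor chains, were both called higher, and their differences were not tested against each other. Il2ra (chromosome 2, 11642807 to 11693193, plus strand, GRCm38), which encodes the high-affinity chain used in the sort, read 15.6, 6.28, 10.8 and 12.6 TPM without beads and 171, 227 and 171 TPM with beads. That is a 16.7-fold higher mean, and 4.00 ± 0.38 on the log2 scale (adjusted p = 6.16e-05). Il2rb, the signalling chain shared with the IL-15 receptor, read 45.5, 31.4, 94.99 and 48.6 TPM and then 142, 161 and 163 TPM. Its difference of 1.59 ± 0.44 had an adjusted p of 0.0312, and leaving out 1 library at a time gave adjusted p-values from 0.0152 to 0.103, with the call kept only without unstimulated library 3. Entpd1, which encodes CD39, the ectonucleotidase of the sort gate, was not called (-0.50 ± 0.30, adjusted p = 0.307). It read 191, 193, 207 and 131 TPM without and 145, 156 and 87.3 TPM with beads. Ikzf2, which encodes HELIOS, read 13.9 to 30.5 TPM and then 29.4 to 45.02 TPM (0.75 ± 0.39, adjusted p = 0.241). Cd4 and Cd3e, which define the T cells sorted, were detected in every WT library and were not called, at -0.47 ± 0.34 and 0.41 ± 0.39. Dock8, intact in these cells, read 9.15 to 22.0 TPM without and 8.71 to 10.1 TPM with beads, and was not called (-0.55 ± 0.32, adjusted p = 0.295). The small differences of Entpd1, Cd4 and Dock8 turned positive under median-ratio scaling.

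Costimulatory receptors of the TNF receptor superfamily, which sustain T cells after the first signal, were among the genes called higher. Tnfrsf4 (OX40) read 72.8, 74.9, 151 and 140 TPM without beads and 1267, 1270 and 1286 TPM with them, 3.61 ± 0.40 on the log2 scale (adjusted p = 0.000152). Tnfrsf9 (4-1BB), a marker of recently activated T cells, went from 3.57 to 10.7 TPM up to 111 to 129 TPM (3.79 ± 0.40). Tnfrsf18 (GITR) was already abundant at 85.0 to 186 TPM and reached 469 to 541 TPM (2.00 ± 0.31). Of the 26 TNF receptors and ligands 9 were called higher and 1 lower, with a median of 0.43; the lower call was lost without bead library 2, and 2 were called without unstimulated library 2. The ligands Tnf and Lta were among them: Tnf read 0.392 to 2.02 TPM without and 40.1, 58.6 and 58.8 TPM with beads, and Lta 1.30 to 7.18 TPM and then 40.2, 171 and 76.6 TPM. Ltb, the abundant partner of lymphotoxin alpha, was not called (183 to 321 TPM and 368 to 374 TPM, adjusted p = 0.399). Cd27, a receptor of naive and memory T cells, was not called either (-1.18 ± 0.38, adjusted p = 0.0585).

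Of 24 coinhibitory and costimulatory receptors 7 were called higher and 2 lower (median 0.41); the lower calls numbered 0 or 1 when any 1 library was left out. Lag3, which binds MHC class II, read 16.1, 1.64, 3.93 and 3.40 TPM and then 31.8, 39.4 and 35.4 TPM (2.70 ± 0.57). Cd200, Btla and the ligand Pdcd1lg2 were also called higher, at 2.34 ± 0.41, 2.00 ± 0.40 and 2.53 ± 0.48. Tigit, abundant in both states, was not called, with 176 to 239 TPM without and 197 to 263 TPM with beads (0.20 ± 0.26). Its difference turned negative under quantile normalization and without the repeat-derived genes. Icos read 48.2 to 63.6 TPM without and 106 to 183 TPM with beads, with no overlap, but its difference of 1.37 ± 0.54 was not called (adjusted p = 0.12). Gpr83, a receptor enriched in Treg cells, was called higher (2.13 to 13.2 TPM and 56.7 to 68.1 TPM; 3.26 ± 0.46). Nrp1, a semaphorin receptor of thymus-derived Treg cells, fell from 43.1, 43.5, 82.8 and 42.4 TPM to 11.2, 10.7 and 14.5 TPM, by 1.99 ± 0.31 on the log2 scale (adjusted p = 0.00127). The other Treg identity gene called lower was Dst, whose call was lost without 5 of the 7 libraries in turn.

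Transcription factors downstream of the receptor were among the largest changes. Irf4 (chromosome 13, 30749226 to 30766976, plus strand, GRCm38), which effector Treg cells require, read 0.866, 1.93, 0.180 and 1.59 TPM without beads and 92.2, 90.1 and 93.9 TPM with them. The 3 bead values lay within 4 TPM of each other, and the difference was 5.53 ± 0.38 (adjusted p = 7.5e-06). Batf, which binds DNA beside IRF4, went from 10.7, 28.0, 28.2 and 35.4 TPM to 258, 425 and 264 TPM (3.65 ± 0.61). Of the 26 effector Treg transcription factors only 4 were called higher and 2 lower, however, and the group median was 0.34; the lower calls numbered 1 when any 1 library was left out. The other higher calls were Irf8 and Tbx21; Tbx21, which encodes T-BET, stayed low at 0.242 to 2.87 TPM without and 6.75, 8.56 and 22.2 TPM with beads (2.59 ± 0.54, adjusted p = 0.00656). Gata3 read 17.1 to 28.8 TPM and then 49.6 to 73.1 TPM but was not called (adjusted p = 0.0555). Rora, a nuclear receptor of nonlymphoid Treg cells, fell from 19.97 to 36.4 TPM down to 7.001 to 10.5 TPM (-1.54 ± 0.31), a call lost under median-ratio scaling (-0.96, adjusted p = 0.0584). Of the 11 abundant genes of this group 3 were called higher and 1 lower, beside 20.5% and 15.1% of all abundant genes.

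Of 24 immediate early genes tested, 7 were called higher and 2 lower, with a median of 0.88. The lower calls numbered 0 when any 1 library other than unstimulated library 2 was left out. Egr2, which restrains activated T cells, was listed at 0 in unstimulated library 3 and read 1.402, 0.396 and 2.10 TPM in libraries 1, 2 and the unnumbered one, then 17.2, 29.3 and 29.7 TPM with beads (3.84 ± 0.58, adjusted p = 0.0011). Nr4a1, an orphan nuclear receptor used as a reporter of receptor signalling, read 1.45 to 9.02 TPM and then 40.6 to 41.9 TPM (3.14 ± 0.51). Egr1 and the AP-1 subunit Junb were called higher at 2.57 ± 0.37 and 1.93 ± 0.36. Feedback phosphatases of the ERK pathway gave 2 higher calls and none lower of 20 tested, both from low levels. Dusp4 read 1.29 to 3.30 TPM and then 12.6 to 18.1 TPM, and Dusp5 0.557 to 1.23 TPM and then 9.202 to 15.4 TPM. Of 38 genes of proximal T cell receptor and CD28 signalling only 2 were called higher and 3 lower, and the group median of -0.32 became 0.29 under median-ratio scaling. The higher calls numbered 1 without unstimulated library 1 or 2 or any bead library, and the lower calls 1 without bead library 1. Ptpn6, which encodes the phosphatase SHP-1, was called higher (23.9 to 42.2 TPM and 106 to 148 TPM; 2.10 ± 0.31). Dgka, which removes the diacylglycerol that the receptor makes, was called lower, from 240, 139, 373 and 183 TPM to 58.5, 41.5 and 54.9 TPM (-2.07 ± 0.32, adjusted p = 0.00134). Calcium, calcineurin and NFAT genes gave 2 higher and 1 lower calls of 25; the higher calls numbered 0 without unstimulated library 1 or any bead library and 1 without unstimulated library 2. The lower calls numbered 0 without bead library 1 or 3 and 2 without unstimulated library 2.

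In the NF-kB group of 26 genes 5 were called higher and none lower, and those 5 came down to 3 without bead library 3. All 5 were among the group's 15 abundant genes, beside 20.5% of all abundant genes called higher. Nfkbia, the inhibitor that NF-kB itself induces, read 132, 56.2, 126 and 121 TPM without beads and 308, 407 and 343 TPM with them (1.75 ± 0.31, adjusted p = 0.00255). Nfkb2, the precursor of the p52 subunit, read 4.56 to 10.3 TPM and then 32.9 to 55.5 TPM (2.46 ± 0.40). Relb, the partner of p52, was called higher at 1.66 ± 0.35, while Nfkb1 was not called (0.79 ± 0.40, adjusted p = 0.224). To show where NF-kB motifs lie near such genes, promoter sequence from RefSeq (GRCm38.p6; 250 bases before to 50 after the annotated start) was searched on both strands for a form of the kappaB element, GGG, then 2 bases of any kind, then TTTCC, which contains no other motif searched here. It was found in 1.6% of the 16760 promoters of tested genes, in 2.11% of promoters of genes called higher, and in 7 of the 22 promoters of the NF-kB group. The 110-base windows upstream of Nfkbia (chr12:55492648-55492757, minus strand), Nfkb2 (chr19:46304627-46304736, plus strand) and the chemokine gene Ccl20 (chr1:83116636-83116745, plus strand) are printed because each of these called genes holds a match, which is given in capitals in the direction of transcription. A match is a description of the letters, not of binding.
Nfkbia: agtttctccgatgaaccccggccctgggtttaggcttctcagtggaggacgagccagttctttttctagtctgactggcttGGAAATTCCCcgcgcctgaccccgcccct
Nfkb2: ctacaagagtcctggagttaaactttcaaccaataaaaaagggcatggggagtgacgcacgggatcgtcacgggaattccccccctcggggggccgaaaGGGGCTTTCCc
Ccl20: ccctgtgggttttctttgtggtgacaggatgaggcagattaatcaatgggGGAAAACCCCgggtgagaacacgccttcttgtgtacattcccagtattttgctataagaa

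Several cytokine genes rose from low levels, and their levels differed among the bead libraries. Of 31 cytokines and secreted mediators 8 were called higher and none lower (median 0.50), and 4 without bead library 2. Il10, a suppressive cytokine of Treg cells, read 0.933, 1.54 and 1.19 TPM in unstimulated libraries 1, 2 and the unnumbered one and 10.8 TPM in library 3, and 36.7, 45.4 and 45.02 TPM with beads (3.69 ± 0.61, adjusted p = 0.00184). Il4, the T helper 2 cytokine, was listed at 0 in unstimulated libraries 2 and 3 and read 7.30 TPM in library 1 and 2.26 TPM in the unnumbered one. With beads it read 45.3, 161 and 90.1 TPM (5.27 ± 0.89, adjusted p = 0.00203). Il2 itself went from 0.584 to 2.06 TPM up to 13.1, 32.5 and 53.7 TPM (3.56 ± 0.66, adjusted p = 0.00352). Il17a was low and uneven, 0.898 to 5.92 TPM without and 9.07, 55.0 and 21.9 TPM with beads, and its call was lost without bead library 2 (adjusted p = 0.0743). Mif, a cytokine stored in most cells, was far more abundant: 99.9, 62.0, 129 and 177 TPM became 2127, 2389 and 2097 TPM (4.32 ± 0.48, adjusted p = 0.000144).

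Among 16 chemokine ligands 6 were called higher and none lower, and 3 without bead library 2. Ccl1, the ligand of CCR8, read 2.20, 1.15, 3.25 and 0.166 TPM without beads and 180, 443 and 39.8 TPM with them (5.94 ± 0.77, adjusted p = 0.000458). Ccl20, which attracts cells that carry CCR6, went from 0.425 to 2.79 TPM up to 30.2, 116 and 62.8 TPM (4.67 ± 0.56). Ccl3, an inflammatory chemokine, was listed at 0 in 3 of the 4 unstimulated libraries and read 1.64 TPM in library 3, then 7.01, 18.5 and 34.5 TPM with beads. The order of the bead libraries was not the same for these genes: library 2 was highest for Ccl1 and Ccl20, and library 3 for Ccl3. Ccl5, a chemokine of memory and cytotoxic T cells, was not called (8.58 to 97.4 TPM and 3.86 to 9.05 TPM, adjusted p = 0.196). The group median of -0.20 was positive under median-ratio scaling and quantile normalization. Receptors moved as well: Ccr8, the receptor of CCL1, rose from 6.02, 0.607, 11.8 and 13.6 TPM to 172, 167 and 165 TPM (4.64 ± 0.77, adjusted p = 0.00193), and Ccr4, which guides Treg cells to skin and inflamed tissue, from 7.36 to 21.7 TPM up to 77.2 to 90.7 TPM (2.48 ± 0.44).

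Genes known to be induced by STAT5 downstream of IL-2 rose. In the STAT5 and cytokine feedback group 9 of 19 genes were called higher and 1 lower, and the median of 2.11 lay between 1.91 and 2.65 under the 4 other scalings. Cish, a suppressor that binds the IL-2 receptor, read 2.79, 2.91, 8.89 and 11.5 TPM without beads and 141, 237 and 221 TPM with them (4.91 ± 0.54, adjusted p = 0.000138). Socs2 was already at 25.9 to 40.1 TPM and reached 213 to 247 TPM (2.75 ± 0.37), and Socs1, which blocks the JAK kinases, went from 3.25 to 12.6 TPM up to 78.2 to 89.7 TPM (3.54 ± 0.67). Ccnd2, the D-type cyclin that opens G1, read 35.7, 51.9, 14.1 and 29.7 TPM and then 441, 690 and 488 TPM (4.11 ± 0.46, adjusted p = 0.00014). Bcl2l1, which encodes the survival factor BCL-XL, was called higher (3.30 to 17.6 TPM and 50.8 to 69.0 TPM; 2.90 ± 0.56), whereas Bcl2 was not (8.52 to 13.4 TPM and 9.16 to 13.8 TPM; 0.14 ± 0.35, and negative without the repeat-derived genes). In the BCL-2 family and cell death group 5 of 33 were called higher, among them the death effector Bax at 2.15 ± 0.35, and 1 lower. These calls all fell among the group's 17 abundant genes, beside 20.5% of all abundant genes called higher and 15.1% lower. The STAT element, TTC, then 3 bases of any kind, then GAA, was found in 4 of 14 promoters of the feedback group, against 7.92% of all promoters and 8.16% of those of genes called higher. It was found as well in 6 of 20 promoters of TNF receptors and ligands and in 5 of 22 of the NF-kB group. The AP-1 element TGANTCA was found in none of the 14, in 7.05% of all promoters and in 4.7% of those of genes called higher.

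Cytokine receptors with their JAK and STAT proteins divided into risers and fallers. Of 35 genes 9 were called higher and 6 lower; without bead library 2 these became 5 and 3, and without bead library 1 only 2 lower calls were left. Il4ra, the IL-4 and IL-13 receptor chain, rose from 11.9 to 25.9 TPM up to 104 to 152 TPM (2.68 ± 0.44). Stat5a, a transducer of IL-2, read 15.7 to 37.7 TPM and then 75.7 to 84.7 TPM (1.71 ± 0.37). Il7r (chromosome 15, 9505788 to 9530176, minus strand, GRCm38), the IL-7 receptor chain on which resting T cells live, fell from 74.6, 41.5, 75.7 and 43.3 TPM to 6.06, 4.95 and 3.75 TPM. Its difference was -3.30 ± 0.38 (adjusted p = 0.000172), and the groups did not come near each other. Il6ra and Stat4, which carry IL-6 and IL-12 signals, also fell, by 1.55 ± 0.30 and 1.51 ± 0.38 on the log2 scale. The call of Stat4 was lost without bead library 1 or 2 and under median-ratio scaling.

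The gene of MYC, the factor that drives ribosome and nucleotide synthesis in activated lymphocytes, rose. Myc (chromosome 15, 61985391 to 61990374, plus strand, GRCm38) read 8.93, 3.05, 9.36 and 3.93 TPM without beads and 140, 179 and 168 TPM with them, 4.59 ± 0.43 on the log2 scale (adjusted p = 6.16e-05). Of the 15 genes of the MYC network, its partners and antagonists, it was the only higher call. Mxd4, which competes with MYC for MAX, was the only lower call and went from 23.4, 13.96, 37.4 and 26.2 TPM to 7.80, 3.98 and 3.45 TPM (-2.10 ± 0.39, adjusted p = 0.00369). The E-box bound by MYC and MAX, CACGTG, which is the same on both strands and contains no other motif searched here, was found in 8.31% of all 16760 promoters. It was found in 13.6% of promoters of genes called higher, in 7.72% of those called lower and in 10.8% of promoters of genes that reached a WT mean of 20 TPM and were not called. In the nucleolar group described next it was found in 12 of 55 promoters (21.8%), and among the cytosolic ribosomal protein genes, also described next, in 5 of 58 (8.62%). The following windows of 110 bases show the E-box, in capitals, upstream of 3 genes called higher, Nme1 (chr11:93968273-93968382, minus strand), Hspd1 (chr1:55088266-55088375, minus strand) and Cdk4 (chr10:127063425-127063534, plus strand), and of Mxd4 (chr5:34187851-34187960, minus strand), which fell. The last shows that the motif was not confined to genes that rose.
Nme1: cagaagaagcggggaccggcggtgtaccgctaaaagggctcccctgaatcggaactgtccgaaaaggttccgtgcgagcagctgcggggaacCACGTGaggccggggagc
Hspd1: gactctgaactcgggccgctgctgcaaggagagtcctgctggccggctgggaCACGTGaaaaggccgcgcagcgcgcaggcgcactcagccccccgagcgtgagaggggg
Cdk4: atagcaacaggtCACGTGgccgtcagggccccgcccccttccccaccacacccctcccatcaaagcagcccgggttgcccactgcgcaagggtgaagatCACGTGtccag
Mxd4: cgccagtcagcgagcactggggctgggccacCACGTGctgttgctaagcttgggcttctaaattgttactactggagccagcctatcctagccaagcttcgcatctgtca

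**Figure D3:**
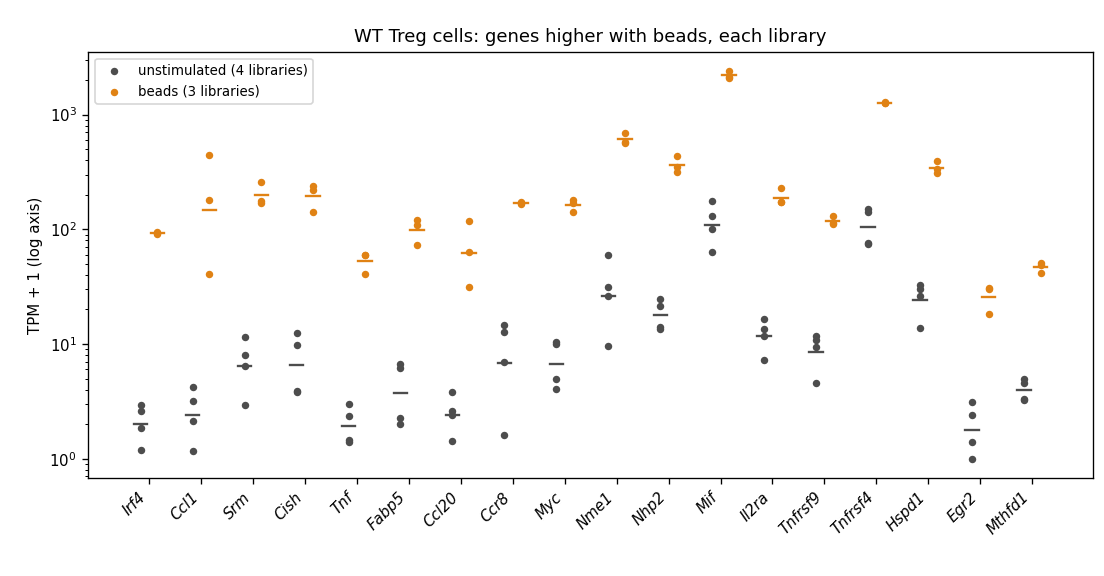
Points are single WT libraries and bars the means of log2(TPM + 1) for genes called higher; the y axis is TPM + 1 on a log axis, with 4 unstimulated libraries in grey and 3 bead libraries in orange. In each of the 18 genes shown every orange point lies above every grey point, which the naming rule required of those taken from the largest differences. The groups did not overlap for 29.5% of all genes tested and 55.7% of the abundant ones. The bead libraries lie close together for Irf4 and Tnfrsf4 and far apart for Ccl1.

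Genes of ribosome production rose as a group. Of 62 genes of nucleolar ribosome biogenesis 47 were called higher and none lower, against 20.5% of abundant genes, with a median of 2.30 and 61 of 62 differences above 0. Npm1, a nucleolar chaperone of ribosome assembly, read 308, 211, 307 and 318 TPM without beads and 2240, 2580 and 2051 TPM with them (3.01 ± 0.30, adjusted p = 9.01e-05). Ncl, which organises ribosomal RNA transcription, went from 44.0 to 73.9 TPM up to 295 to 436 TPM (2.71 ± 0.29). Nop58 and Nhp2, proteins of the particles that modify ribosomal RNA, were called at 3.08 ± 0.28 and 4.35 ± 0.35; Nhp2 read 12.4 to 23.5 TPM and then 313 to 437 TPM. All 79 cytosolic ribosomal protein genes tested had a positive difference, and 70 were called higher (median 1.57). Their summed level went from between 25330 and 59290 TPM in the unstimulated libraries to between 115200 and 125700 TPM in the bead libraries. Rps2 read 347, 202, 534 and 156 TPM and then 3245, 3301 and 2673 TPM (3.46 ± 0.52). Rpl10a was called at 1.95 ± 0.24. Rps27 was already at 1064 to 3481 TPM and was not called (2187 to 2749 TPM with beads; 0.38 ± 0.39, and -0.23 under quantile normalization). Ribosomal protein genes have many processed copies in the genome, so reads could be split between them and single values are uncertain. Their count of calls was 40 without bead library 1, 46 without bead library 2 and 38 under quantile normalization, with a median between 1.15 and 2.20 under the other scalings.

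Factors that use ribosomes rose with them. Of 51 translation factors 34 were called higher and none lower (median 1.61). Eif5a, an elongation factor modified with the polyamine derivative hypusine, read 108, 72.2, 174 and 126 TPM and then 1563, 1920 and 1682 TPM (3.89 ± 0.45, adjusted p = 0.000181). Eef1d was called at 2.53 ± 0.26. Eef2 was abundant without beads, at 256 to 677 TPM, and was not called (598 to 702 TPM with beads, 0.68 ± 0.34, adjusted p = 0.225). Odc1 and Srm, the enzymes that make putrescine and spermidine on the way to hypusine, were both called higher: Odc1 read 7.14 to 14.2 TPM and then 46.7 to 55.7 TPM, and Srm 7.05, 1.94, 10.4 and 5.48 TPM and then 175, 259 and 170 TPM (4.94 ± 0.56, adjusted p = 0.00016). Of 22 aminoacyl-tRNA synthetases 13 were called higher and none lower (median 1.72), with Kars, which charges lysine, going from 14.3 to 27.6 TPM up to 137 to 151 TPM. Splicing and RNA export genes gave 32 higher calls and none lower of 48, among them Ranbp1 and Ran of the nuclear transport cycle, at 3.59 ± 0.41 and 3.26 ± 0.44, and the splicing regulator Hnrnpa1, which read 49.0 to 65.2 TPM and then 537 to 655 TPM (3.36 ± 0.27). Lsm7, an RNA-binding subunit of the spliceosome, was listed at 0 in unstimulated libraries 1 and 3 and read 36.7 TPM in library 2 and 13.4 TPM in the unnumbered one, then 156, 130 and 63.3 TPM with beads; its adjusted p was 0.0521 in a fit of the WT libraries alone.

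Mitochondrial genes formed another broad rise. Mitochondrial import and chaperone genes had the highest of the group medians on the deposited TPM, 2.35, with 28 of 34 called higher and none lower. Hspd1 (HSP60), which folds imported proteins, read 31.5, 12.7, 25.4 and 29.1 TPM without beads and 334, 394 and 311 TPM with them (3.83 ± 0.35, adjusted p = 6.16e-05). Its partner Hspe1 went from 28.6 to 67.9 TPM up to 463 to 663 TPM (3.48 ± 0.43), and Hspa9, the import motor, from 10.7 to 22.7 TPM up to 129 to 142 TPM (3.02 ± 0.28). Timm8a1, a chaperone of the space between the mitochondrial membranes, was listed at 0 in all 4 unstimulated libraries and read 27.7, 47.4 and 17.5 TPM with beads, for which no fold is given. Of 77 genes of oxidative phosphorylation 53 were called higher and none lower (median 1.78). Atp5g1, a subunit of the ATP synthase ring, read 68.4, 36.8, 71.6 and 51.2 TPM and then 750, 713 and 644 TPM (3.64 ± 0.51, adjusted p = 0.000677). Cox5a of complex IV was called at 2.92 ± 0.36, while Cox7a2l, which joins complexes into larger assemblies, was not called and lay lower with beads in every library (166 to 349 TPM and 90.0 to 148 TPM; -0.93 ± 0.35, adjusted p = 0.104). Mitochondrial ribosomal proteins gave 44 higher calls of 76 and none lower (median 1.61); Mrps28 read 4.16 to 9.46 TPM and then 70.0 to 90.7 TPM. Their count was 27, 22 and 24 without bead libraries 1, 2 and 3, and 29 without unstimulated library 1 or 2. No gene encoded in mitochondrial DNA is listed in the tables.

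Anabolic enzymes rose selectively. Among 28 genes of glycolysis and glucose uptake 10 were called higher and none lower (median 0.85). Ldha, which turns pyruvate into lactate, read 152, 119, 256 and 204 TPM and then 1019, 1183 and 1035 TPM (2.61 ± 0.33, adjusted p = 0.000401). Tpi1 was called at 2.99 ± 0.42, and the lactate carrier Slc16a1 rose from 0.574 to 1.496 TPM up to 10.1 to 12.4 TPM (2.54 ± 0.35). Gpi1 was not called (0.79 ± 0.39, adjusted p = 0.209). In amino acid uptake and one-carbon metabolism 18 of 34 were called higher and 1 lower; leaving out bead libraries 1, 2 and 3 gave 11, 10 and 11 higher calls. Phgdh, the entry to serine synthesis, went from 18.5, 9.48, 39.2 and 22.9 TPM to 229, 269 and 230 TPM (3.53 ± 0.41, adjusted p = 0.000174). Shmt2 and Mthfd1, which pass serine carbon to folate, were called at 3.20 ± 0.37 and 3.57 ± 0.39. Slc7a11, the cystine transporter, was the lower call (23.9 to 44.8 TPM and 8.33 to 17.6 TPM; -1.51 ± 0.31), which was lost under median-ratio scaling (adjusted p = 0.0611). The glutamine carrier Slc1a5 was not called (0.74 ± 0.41, adjusted p = 0.27).

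Nucleotide synthesis gave 22 higher calls of 30 and none lower (median 1.89), and 13 and 14 calls without bead libraries 2 and 3. Nme1 and its neighbour Nme2, nucleoside diphosphate kinases with closely similar sequences whose reads may be shared, had the largest differences of the group. Nme1 read 25.4, 8.55, 58.8 and 30.4 TPM and then 565, 691 and 571 TPM (4.53 ± 0.72, adjusted p = 0.00145). The ribonucleotide reductase subunits Rrm1 and Rrm2, which make the building blocks of DNA, were called at 2.69 ± 0.36 and 3.13 ± 0.54. Sterol and fatty acid synthesis gave 5 higher calls and 1 lower of 35 (median 0.73). Leaving out the unnumbered or unstimulated library 2, or bead library 1 or 3, gave 3 higher calls and leaving out bead library 2 gave 2, while median-ratio scaling gave 17. Its calls included Idi1 and Hmgcs1 at 2.03 ± 0.34 and 1.77 ± 0.36; Dhcr7, the last step to cholesterol, was not called (-0.76 ± 0.76). Fabp5, a fatty acid carrier, was among the largest rises, at 1.28, 5.13, 5.76 and 1.0102 TPM without and 71.5, 120 and 107 TPM with beads (4.72 ± 0.52, adjusted p = 0.000138).

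Protein folding and turnover rose alongside synthesis. Cytosolic chaperones gave 21 higher calls of 30 and none lower (median 1.92). Hspa8, the constitutive HSP70, read 290, 194, 508 and 340 TPM and then 2248, 2497 and 2262 TPM (2.89 ± 0.36, adjusted p = 0.00036). Hsp90aa1 was called at 3.37 ± 0.33. Within the CCT ring, Cct7 was called (41.9 to 61.6 TPM and 339 to 389 TPM; 2.72 ± 0.26), but Cct6a, already at 408 to 735 TPM, was not (642 to 787 TPM; 0.50 ± 0.28). In the unfolded protein response and ER folding group 15 of 31 were called higher and none lower. Hspa5 (BiP), the lumenal chaperone, went from 25.6, 31.7, 43.8 and 37.2 TPM to 277, 281 and 260 TPM (2.97 ± 0.32, adjusted p = 0.000117), and the stress factor Atf4 was called at 1.52 ± 0.27. All 37 proteasome genes had a positive difference with no overlap between the groups, beside no overlap for 55.7% of abundant genes. Of the 37 genes 30 were called higher (median 1.95), against 20.5% of abundant genes. Psme2, a subunit of the activator that interferon gamma induces, read 80.3, 54.1, 117 and 99.8 TPM and then 683, 619 and 667 TPM (2.94 ± 0.35). Psmc5 of the base was called at 2.78 ± 0.36 and Psmc2 was not (70.5 to 114 TPM and 121 to 142 TPM; 0.42 ± 0.23). Of 26 redox genes 8 were called higher and 1 lower, with thioredoxin, Txn1, at 36.1 to 75.8 TPM and then 413 to 476 TPM (3.18 ± 0.40).

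Genes that start DNA replication had risen after 16 h of culture. Of 51 genes of DNA replication and the G1 to S transition 29 were called higher and 1 lower (median 1.61), and of 46 genes of mitosis and G2 to M 12 were called higher and 2 lower (median 0.52); the difference between the groups was not tested. Cdk4, the kinase that partners with D-type cyclins, read 38.3, 22.8, 52.1 and 56.1 TPM and then 271, 387 and 371 TPM (3.05 ± 0.50, adjusted p = 0.00176). Mcm2 and Mcm5 of the replicative helicase were called at 2.89 ± 0.41 and 3.53 ± 0.53. Pcna, the polymerase clamp, went from 30.0, 9.39, 25.1 and 24.996 TPM to 129, 175 and 140 TPM (2.77 ± 0.39). Uhrf1, which copies DNA methylation to new strands, rose from 1.78 to 3.81 TPM up to 20.8 to 49.4 TPM (3.14 ± 0.51), 1 of 5 higher calls among 22 genes of DNA methylation, TET and PRC2 with none lower. These 5 calls became 2 or 3 when any 1 library was left out. Cdkn1b (p27), the inhibitor that holds resting T cells in G0, was the lower call of its group, from 25.1, 16.99, 44.3 and 26.1 TPM to 6.12, 5.28 and 5.21 TPM (-2.08 ± 0.42, adjusted p = 0.00584). Cdkn1a (p21), a target of p53, was listed at 0 in unstimulated library 2 and read 2.43, 0.976 and 18.6 TPM in the others, then 62.8, 69.9 and 25.3 TPM (3.86 ± 0.85, adjusted p = 0.00947). Trp53 itself was called at 1.64 ± 0.30. Among mitotic genes Tuba1b, an alpha tubulin, rose from 56.1 to 127 TPM up to 906 to 1103 TPM, Top2a was not called (15.1 to 29.0 TPM and 21.9 to 39.9 TPM), and the condensin subunit Smc4 fell from 361 to 757 TPM down to 167 to 206 TPM (-1.50 ± 0.29). Without bead library 2 the counts were 19 higher calls for replication and 7 for mitosis, and 7 for mitosis also without unstimulated library 2 or bead library 3, the last with 1 lower call. The call of Smc4 was lost under median-ratio scaling (adjusted p = 0.0555). Hist1h2ap, a replication histone with near-identical copies, was uneven: it was listed at 0 in unstimulated libraries 2 and 3, read 41.7 TPM in library 1 and 87.3 TPM in the unnumbered one, and 331, 821 and 576 TPM with beads, with a call lost in 5 of the 7 fits that left out a library.

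Genes of the resting state fell. Of the 40 resting T cell factors and quiescence genes none was called higher and 20 were called lower, against 15.1% of abundant genes; the median was -1.19 and stayed between -0.65 and -1.49 under the other 4 scalings, with 9 lower calls under median-ratio scaling and 13 without bead library 2. Tcf7, the factor of naive and memory T cells, read 110, 58.8, 167 and 81.3 TPM without beads and 17.7, 10.7 and 23.9 TPM with them (-2.47 ± 0.38, adjusted p = 0.00119). Klf3, a repressor of the KLF family, went from 24.9 to 49.4 TPM down to 6.73 to 7.74 TPM (-2.22 ± 0.31). Tsc22d3 (GILZ), a glucocorticoid-induced inhibitor of activation, read 68.2, 32.4, 62.2 and 65.9 TPM and then 11.7, 8.04 and 11.2 TPM (-2.32 ± 0.30, adjusted p = 0.000456). Pik3ip1, a brake on PI3K, read 39.1 to 79.3 TPM and then 3.87 to 19.2 TPM (-2.40 ± 0.45), and Ms4a4b, a surface protein of resting T cells, 249 to 518 TPM and then 74.9 to 146 TPM (-1.85 ± 0.35). Slfn2, which T cells need to stay quiescent, was not called (75.3 to 155 TPM and 126 to 173 TPM; 0.36 ± 0.32).

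Receptors that route T cells through lymphoid organs and tissues were called in both directions, at shares near those of all abundant genes. Of 26 recirculation and chemokine receptor genes 4 were called higher, Ccr8 and Ccr4 among them, and 5 lower, with a median of -0.69. Of the group's 19 abundant genes 4 were called higher and 3 lower, beside 20.5% and 15.1% of all abundant genes. S1pr1, needed to leave lymph nodes, read 79.1, 53.2, 89.5 and 75.5 TPM and then 11.6, 10.6 and 19.0 TPM (-2.37 ± 0.31, adjusted p = 0.000455). Itga4, an integrin chain, was called lower at -2.05 ± 0.26. Ccr7, which guides cells to T cell zones, was not called and hardly differed (97.1 to 238 TPM and 132 to 191 TPM; -0.03 ± 0.34), with a sign that depended on scaling and on single libraries. Cd44, the adhesion receptor of activated T cells, rose from 10.4 to 14.9 TPM up to 43.4 to 58.3 TPM (1.89 ± 0.33). The count of lower calls was 3 when any 1 library other than unstimulated library 3 was left out.

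Further falls came from the 15 largest that the naming rule allows, which leaves out predicted genes with larger ones. Il7r, described above, is among these 15. Tlr1, a Toll-like receptor that pairs with TLR2 and whose neighbour Tlr6 is similar enough to share reads, read 1004, 756, 680 and 597 TPM without beads and 80.4, 72.2 and 86.1 TPM with them (-3.21 ± 0.48, adjusted p = 0.00109). Ap1g1, the gamma subunit of the AP-1 clathrin adaptor of the trans-Golgi, read 100, 140, 132 and 105 TPM and then 8.64, 11.2 and 15.6 TPM (-3.25 ± 0.37, adjusted p = 0.000152). Tnnt1, a skeletal muscle troponin, read 53.5, 81.1, 136 and 63.7 TPM without beads; with beads it was listed at 0 in library 1 and read 1.98 and 23.5 TPM in libraries 2 and 3 (-4.25 ± 0.74). Khdrbs2, an RNA-binding protein best known from brain, read 227, 245, 286 and 103 TPM and then 3.57, 76.7 and 3.41 TPM (-4.12 ± 0.76, adjusted p = 0.00361). Bead library 2 kept a level of Khdrbs2 near that of the lowest unstimulated library, while the other 2 bead libraries were far below. Pla2g4a, the cytosolic phospholipase that frees arachidonic acid, went from 27.0 to 100 TPM down to 18.6, 2.86 and 0.799 TPM. Kcnip2 and St8sia6, a potassium channel subunit and a sialyltransferase, were called lower at -3.70 ± 0.71 and -3.23 ± 0.51. Col4a1, a collagen of basement membranes, read 16.7 to 52.7 TPM and then 0.169 to 4.84 TPM; its call was lost without bead library 3 (adjusted p = 0.0607).

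**Figure D4:**
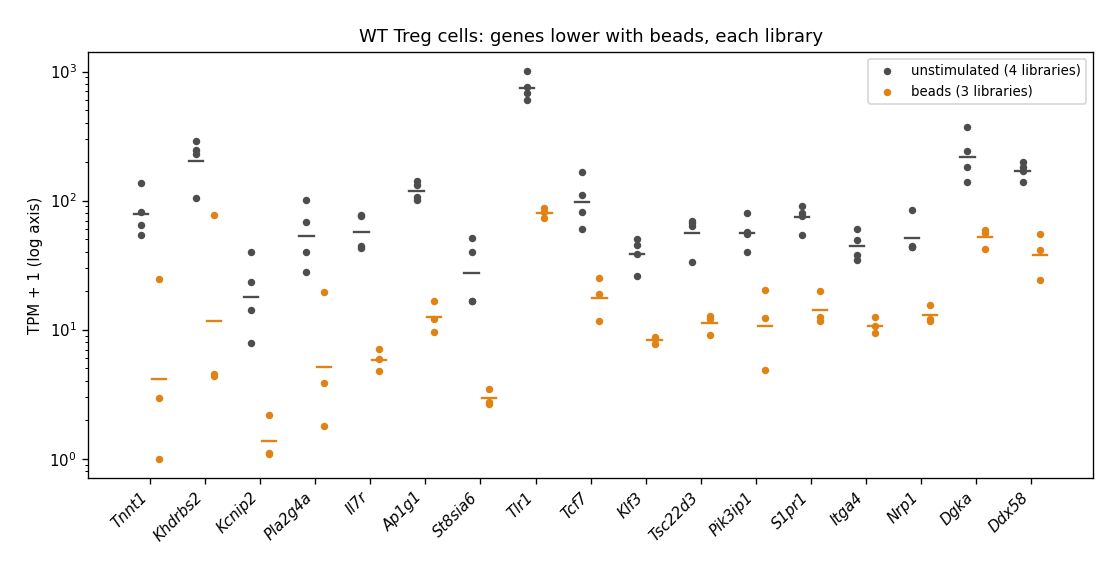
Points are single WT libraries and bars the means of log2(TPM + 1) for genes called lower; the y axis is TPM + 1 on a log axis, with 4 unstimulated libraries in grey and 3 bead libraries in orange. In each of the 17 genes shown every orange point lies below every grey point, which the naming rule required of those taken from the largest differences. The groups did not overlap for 29.5% of all genes tested and 55.7% of the abundant ones. The bead libraries spread widely for Tnnt1, Khdrbs2 and Pla2g4a and narrowly for Il7r, Tlr1 and Klf3.

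Protein-coding genes were 18763 of the 29989 genes tested; they held 1305 of the 1378 higher calls (94.7%) and 984 of the 1988 lower calls (49.5%). Of 4792 long noncoding RNA genes tested, 12 were called higher and 485 lower, and their median difference was -0.73. Genes of other classes or with no annotation gave 4 higher and 436 lower calls of 2867, the latter 21.9% of all lower calls. Pseudogenes gave 57 higher and 83 lower calls of 3567.

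The interferon groups differed in the direction of most of their calls. Of 39 type I interferon response genes 3 were called higher and 9 lower (median -0.61), while of 37 genes of interferon gamma response, guanylate-binding proteins, immunity-related GTPases and MHC 12 were called higher and none lower (median 0.94). Beside these, 4.6% of all genes tested were called higher and 6.63% lower, with a median of -0.44. Of abundant genes 20.5% were called higher and 15.1% lower, with a median of 0.19. The difference between the 2 interferon groups was not tested. Ddx58 (RIG-I), a sensor of viral RNA, fell from 180, 169, 138 and 199 TPM to 23.1, 40.3 and 54.4 TPM (-2.17 ± 0.32, adjusted p = 0.000924). Bst2 (tetherin) moved against its group, from 8.64 to 27.9 TPM up to 122 to 127 TPM (2.77 ± 0.47). Ifi35 was called higher at 1.44 ± 0.31, a call lost under quantile normalization (adjusted p = 0.0574). Gbp2, a guanylate-binding protein, read 14.1, 9.94, 9.202 and 21.2 TPM and then 137, 59.9 and 121 TPM (2.86 ± 0.58, adjusted p = 0.00576). Gbp10 was listed at 0 in 3 unstimulated libraries and read 0.936 TPM in library 1, then 10.8, 6.70 and 5.28 TPM. Iigp1, an immunity-related GTPase, read 0.593 to 13.3 TPM and then 18.1 to 40.6 TPM, and its call was lost without bead library 1 or 3. The abundant MHC class I genes B2m and H2-K1 were not called, at 0.66 ± 0.32 and 0.39 ± 0.32, the latter negative under quantile normalization. Type I lower calls numbered 3 without bead library 1 or 3 and under median-ratio scaling, and interferon gamma calls 6 without bead library 3 and 23 under median-ratio scaling.

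The actin and synapse group, in which DOCK8 acts as an activator of CDC42, gave 6 higher and 3 lower calls of 40 (median 0.39), with 1 lower call when any bead library was left out. Of its 33 abundant genes 6 were called higher and 2 lower, against 20.5% and 15.1% of all abundant genes, so the group did not exceed those shares. Pfn1, which feeds actin filaments, read 385, 305, 574 and 583 TPM and then 1531, 1579 and 1533 TPM (1.79 ± 0.32, adjusted p = 0.00275). Was, which encodes the Wiskott-Aldrich protein that CDC42 opens, fell from 65.9, 44.3, 54.8 and 42.2 TPM to 16.5, 25.2 and 11.8 TPM (-1.53 ± 0.35, adjusted p = 0.011), a call lost without bead library 3 (adjusted p = 0.0711) and under median-ratio scaling. Dock2, the RAC activator of lymphocytes, was called lower at -1.36 ± 0.31, also lost without bead library 1 or 2 and under median-ratio scaling. Coro1a was not called (240 to 686 TPM and 529 to 636 TPM). Median-ratio scaling gave 20 higher calls in this group.

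Markers of other cells that the sort could hold were set beside these values. Of 15 markers of conventional and CD8 T cells and NK cells none was called higher and 3 lower, against 6.63% of all genes tested, and 1 lower without bead library 3; their summed level was 83.3 to 136 TPM without and 49.7 to 79.9 TPM with beads. Cd7 read 7.91 to 26.2 TPM and then 0.780 to 3.08 TPM (-2.60 ± 0.49). Cd8a read 2.66 to 7.68 TPM and then 0.367 to 1.37 TPM, a call lost without 5 of the 7 libraries in turn, and Klrb1c, an NK receptor, 18.7 to 30.5 TPM and then 3.72 to 9.64 TPM, a call lost without bead library 3 (adjusted p = 0.0791), under median-ratio scaling (0.095) and under quantile normalization (0.0543). No marker of gamma delta T and innate lymphoid cells (9 tested), of B and plasma cells (17) or of myeloid and dendritic cells (17) was called in either direction. B and plasma cell markers summed to 270 to 599 TPM without and 287 to 329 TPM with beads. Ighm, the IgM heavy chain, read 196 to 521 TPM and then 256 to 293 TPM and was not called, with a difference of -0.22 ± 0.47 that was positive under median-ratio scaling and without unstimulated library 3. Myeloid markers summed to 150 to 287 TPM and then 161 to 190 TPM. Of stromal and endothelial markers 3 of 15 were called lower, and 1 when unstimulated library 2 or 3 or any bead library was left out. Their sums were 72.9 to 85.2 TPM and then 19.9 to 35.4 TPM, with no overlap. Among them Pecam1, an adhesion molecule that T cells also carry, read 31.2 to 45.9 TPM and then 10.5 to 11.9 TPM (-1.70 ± 0.34). Neutrophil, mast cell and erythroid markers summed to 33.0 to 48.8 TPM and then 15.5 to 21.8 TPM, also with no overlap, and 1 of 15 was called lower, a call lost without bead library 1 or 2. No marker listed in these groups was at 0 in all 7 WT libraries, but this cannot show that such cells were present. Genes with fewer than 2 nonzero values did not occur in the unstimulated or the bead set, KO libraries counted. Markers missing from either set were left out. Those listed were 17 of 19 for B and plasma cells and 18 of 21 for myeloid cells. They were 16 of 19 for neutrophil, mast and erythroid cells and 16 of 18 for stroma. Of the listed markers, 1 myeloid, 3 neutrophil, mast cell or erythroid and 4 stromal ones were under 1 TPM in all 7 WT libraries. The part of these cells in the falls described above was not tested.

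The same contrast in DOCK8-deficient Treg cells, which shares no library with the WT contrast but shares its fit, was set beside these values. There 1785 genes were called higher (5.95% of those tested) and 646 lower (2.15%), together 8.11%. Of the WT higher calls 1141 were also called higher in KO cells, 82.8% of the WT calls and 63.9% of the KO calls, and 1370 of 1378 had the same sign. Of the WT lower calls 440 were also called lower in KO cells, 22.1% of the WT calls and 68.1% of the KO calls, 1886 of 1988 had the same sign, and 1 was called in the opposite direction. Irf4 and Myc differed with beads by 5.16 and 4.88 in KO cells against 5.53 and 4.59 in WT cells, and Il2ra by 3.35 against 4.00. Tnfrsf18 differed by 3.65 in KO against 2.00 in WT cells, and Ctla4 by 2.93 against 1.51.

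The difference between the WT and the KO response was tested for every gene, and 1 of 29989 was called (0.00333%), with 1247 at a p under 0.05 before adjustment; with only 2 KO bead libraries the interval of each difference is wide. The gene called, ENSMUSG00000096252, carries no symbol. It read 5.04 to 15.2 TPM in unstimulated and 4.04 to 9.64 TPM in bead WT libraries, was listed at 0 in all 6 unstimulated KO libraries and read 13.9 and 13.4 TPM in the KO bead libraries (-4.33 ± 0.56, adjusted p = 0.0356). It was not called after scaling to abundant genes. Some WT changes had small values in KO cells without a called difference. Il4 was listed at 0 in some KO libraries and read up to 7.91 TPM in the 6 unstimulated, and 7.11 and 4.02 TPM in the 2 bead KO libraries (0.91 in KO against 5.27 in WT cells; difference 4.37 ± 1.30, adjusted p = 0.999). Khdrbs2 stayed at 144 and 168 TPM in the KO bead libraries (-0.54 against -4.12; difference -3.58 ± 1.12, adjusted p = 0.999). Gbp10 and Tnfrsf8, which encodes CD30, were called in WT cells at 2.81 ± 0.40 and 2.22 ± 0.39 and differed by 0.33 and 0.11 in KO cells, with adjusted p-values of 0.581 and 0.785 for the differences between responses.

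**Figure D5:**
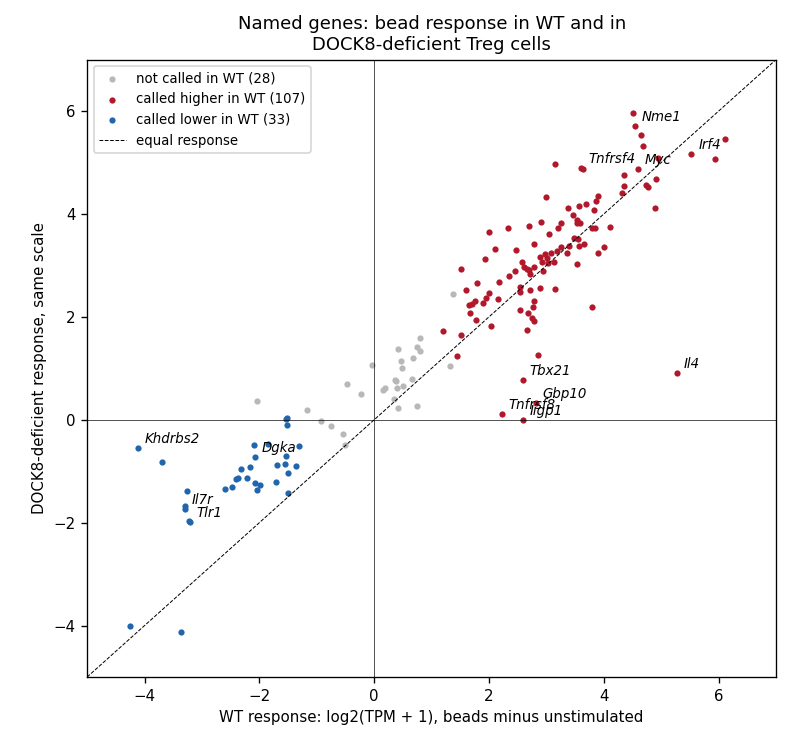
Each point is a gene named in the text, placed by its difference in log2(TPM + 1), beads minus unstimulated, in WT cells (x axis) and in DOCK8-deficient cells (y axis), coloured by its call in WT cells; the dashed line marks equal values. Of the genes called higher in WT cells 67 of 107 lie above the line, as do 32 of the 33 genes called lower and 25 of the 28 not called, beside a median over all abundant genes of 0.74 in DOCK8-deficient and 0.19 in WT cells, and Il4, Khdrbs2 and Gbp10 lie far from it with no called difference between the responses.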

How the data were processed

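The authors deposited 1 table of TPM values per library, 15 in all, with Ensembl gene identifiers; per the submitters' processing notes STAR, Salmon and DESeq2 were used with mm10, with versions and roles not given in the sources used here. WT tables summed to between 819697 and 912942 TPM over the genes listed. There were 36904 genes listed without beads and 31785 listed with beads; 30949 genes were shared, and GENCODE vM21 (GRCm38) named 30788 of these. Tests covered the 29989 genes that reached 1 TPM in 2 or more libraries. A limma model (limma 3.58.1 in R 4.3.3) of log2(TPM + 1), with a pseudocount of 1, had a term for each of the 4 groups, the trend option and 11 residual degrees of freedom, and p-values were adjusted over all genes by the Benjamini-Hochberg method; every adjusted p for a gene is from this fit unless another is named. ± beside a log2 difference is the SE and beside TPM or a share the SD. Values of 0 are given as listed at 0, since a 0 can be a failed estimate.

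Scaling to abundant genes divided each library by its median ratio over 803 genes whose mean reached 50 TPM in every group. Repeat-derived predicted genes were the 12 predicted genes with a mean above 1000 TPM that share sequence with each other. Gene groups were written from general knowledge and are described by counts and medians, with no test of a group. The part of the data examined, the groups and the tests were chosen with earlier results of these data known. Genes named were Foxp3, Il2ra, Il2rb, Ctla4, Entpd1, Ikzf2, Cd4, Cd3e and Dock8; from the 15 largest called differences each way, where the higher group averaged 5 TPM or more and the WT groups did not overlap, without predicted genes, pseudogenes, small RNAs and receptor segments; from each group's up to 8 called members in each direction with the smallest p and up to 4 uncalled members with the highest mean; and genes called for the difference between the WT and KO responses. Library measures were compared by exact two-sided permutation over all 35 assignments of 7 libraries. The main fit did not pair libraries by title number, since it is not known whether the numbers mark pairs. On simulated data with 50 of 29989 genes changed at each size, the WT contrast recovered 4% of changes of 1, 50% of 2, 70% of 3 and 84% of 4 on the log2 scale, with 3 false calls. The changed genes were drawn from those with a mean log2(TPM + 1) above log2(5). Far fewer genes changed there than were called in the data, so the adjustment was stricter and these rates need not hold for the data. Promoters came from RefSeq, matched by symbol for 16760 of the 29827 tested genes with one. Some genes that this rule would name are not reported here.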

Additional observations from a re-analysis of the deposited data

Results flagged for a closer look

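In the 4 unstimulated WT libraries, 10 of 173 sets of values examined held a library whose gap to the nearest of the others, divided by the range on the log2(TPM + 1) scale, exceeded Dixon's 95% critical value; chance gives such a gap in about 1 of 20 sets. Unstimulated library 3 was the high one for Cd4 (113 TPM against 55.0 to 60.5 TPM, ratio 0.869), Nrp1 (82.8 against 42.4 to 43.5 TPM, 0.964), Il10 (10.8 against 0.933 to 1.54 TPM, 0.849) and Ccl3 (1.64 TPM, with the others listed at 0, ratio 1). Library 2 was the low one for Nfkbia (56.2 against 121 to 132 TPM, 0.902), Npm1 (211 against 307 to 318 TPM, 0.916), Pcna (9.39 against 24.996 to 30.0 TPM, 0.838) and Tsc22d3 (32.4 against 62.2 to 68.2 TPM, 0.876). Library 1 was low for Il2 (0.584 against 1.82 to 2.06 TPM, 0.877) and high for Gbp10 (0.936 TPM, with the others listed at 0, ratio 1). Cd4 was not called with beads, and the calls of the other 9 genes held without the library in question.

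The bead response of ENSMUSG00000096252 differed between the genotypes by a test of the difference itself, -4.33 ± 0.56 (limma, adjusted p = 0.0356), with the values given above; it rested on a level listed at 0 in every unstimulated KO library.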

How the results depend on the processing

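The 140 genes named as called kept their direction under each alternative in which they were tested, and each alternative lost at most 9 of these calls, 9 under median-ratio scaling and 9 without bead library 3. Scaling to abundant genes, no filter, a minimum of 5 TPM and array weights lost 0. Median-ratio scaling gave 2543 genes higher and 617 lower, quantile normalization 896 lower, rescaling without repeat-derived genes 3350 lower, and array weights 2103 higher and 3939 lower. Testing only the genes with a group mean of at least 20 TPM gave 1191 lower, or 1227 with scaling to abundant genes. A fit of only the 7 WT libraries, without the KO libraries in the spread, gave 1531 higher and 1793 lower. Leaving out each WT library in turn gave 773 to 1347 higher and 812 to 2122 lower, with fewest higher calls without bead library 2 and fewest lower calls without bead library 3. Whether the numbers in the titles mark pairs is not known, and the main fit treated the libraries as unpaired. Same-numbered WT libraries had correlations of -0.025, -0.003 and -0.037 between their deviations from the group means. Not every library correlated best with its own number. Correlations from 3 such pairs cannot show that the libraries were unpaired. With the number as a replicate block (5 residual degrees of freedom) 1045 genes were higher and 1282 lower, or 1086 and 1229 with scaling to abundant genes, and 136 of the 140 named calls held in each; the calls lost were those of Il17a, Lag3 (adjusted p = 0.0702), Ifi35 and Was with the block, and of Dst, Il17a, Iigp1 and Lag3 (0.0731) with the block and scaling. For the difference between genotypes the count was 1, and became 0 with scaling to abundant genes, quantile normalization, a pseudocount of 5, the 20 TPM minimum with or without scaling, and the replicate block with or without scaling; it became 2 with median-ratio scaling or a minimum of 5 TPM, 3 with a pseudocount of 0.1, 5 without the unnumbered libraries or with array weights, and 0 to 6 without each WT library in turn. Directions turned only for uncalled genes. Under median-ratio scaling Entpd1 was 0.12, Cd4 0.15, Dock8 0.02, Ccr7 0.59 and Ighm 0.40; under quantile normalization Tigit was -0.05, Rps27 -0.23 and H2-K1 -0.31; without repeat-derived genes Tigit was -0.11 and Bcl2 -0.13. Ccr7 was 0.14 without the unnumbered libraries and with the replicate block, 0.11 with the block and scaling, and -0.29 to 0.14 without single libraries, and Ighm -0.45 to 0.02, positive only without unstimulated library 3. The difference in genes listed at 1 TPM or above lay between -4949 and -4045 without single libraries, where the exact test cannot reach 0.05. The difference in the scale factor lay between -0.06736 and 0.06049, and was -0.06736 without unstimulated library 2 and -0.006922 without bead library 2. The causes were not tested. TPM keeps no depth, so the precision that depth allows is not known. The self-test, in which far fewer genes changed than were called in the data, recovered few changes of 1 on the log2 scale.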

Other observations

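Genes listed in only 1 of the 2 sets of tables entered no comparison. The bead tables alone listed 836 genes, which summed to between 2899 and 5014 TPM per WT bead library; 24 of them had a mean of at least 20 TPM and 6 of at least 100 TPM. Among these was Rps12, a ribosomal protein gene, at 180, 176 and 387 TPM in WT bead libraries 1, 2 and 3. The unstimulated tables alone listed 5955 genes, which summed to between 11056 and 21328 TPM per WT library, with 67 at a mean of at least 20 TPM and 7 at or above 100 TPM. Rps12 was named after its values were seen.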
